A study of Prunus persica with 18 samples.

Results

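Apical axillary buds of peach sampled at 58 days after full bloom (DAFB), the time point T3, were compared with apical buds sampled at both other time points, 45 DAFB (T1) and 79 DAFB (T5). The libraries were chosen by their labels alone: 9 of the 18 libraries of the series were apical, with 3 biological replicates at each of T1, T3 and T5, and the other 9 came from basal buds at the same times. The question was which genes stood highest or lowest at T3 against T1 and against T5 alike, whether this rested on the library called apical T3 replicate 1, and whether basal buds showed the same. A gene counted as highest (or lowest) at T3 when T3 was called higher (or lower) than T1 and likewise than T5.

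All 6 groups were buds of Platinet 1, a flat nectarine (Prunus persica var. platycarpa), taken in one season from untreated shoots in a spraying trial. The study sprayed gibberellin at several dates and chose these 3 for RNA-Seq because sprays given at T3 lowered the bloom of the following year the most, while T1 and T5 were the dates that contrasted with it. The study describes the buds used here as untreated and collected before each spraying, so the comparison is one of sampling time. Which trees of the trial the shoots came from is not stated. Buds of a replicate were pooled from several shoots, by the study's methods both positions of a replicate share their shoots, and the small buds were sampled with surrounding tissue.

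Axillary meristems of peach change over the early summer from forming leaves to forming flowers. In plants at large this change is held back by TERMINAL FLOWER 1 (TFL1) and its relative CENTRORADIALIS (CEN), and promoted by FLOWERING LOCUS T (FT), proteins of a single family that compete for the same partner. SQUAMOSA PROMOTER BINDING PROTEIN-LIKE (SPL) factors make the shoot competent to flower, and APETALA1 (AP1) then gives the meristem its floral identity. Gibberellins delay or prevent the change in many fruit trees.

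The total count per library ranged from 21114469 to 41764570 (median 38206592) in apical buds and from 25801050 to 47286272 (median 30517660) in basal buds. Levels below are normalized counts, that is counts divided by the effective library size (TMM) and rescaled to the mean library. The library labelled apical T3 replicate 1 stood apart from its group: across 19754 genes its log2 counts, scaled to library size, correlated at 0.964 and 0.971 with the other T3 replicates, which correlated at 0.992 with each other, and 1412 genes were at least 2-fold below both of them in it, against at most 137 in any other apical library. Of these 1412 genes, 1293 were lower in this library than in each of the other 8 apical libraries. The library labelled apical T5 replicate 1 correlated more with basal T5 replicate 1 (0.989) than with the other apical T5 replicates (0.985 and 0.987). The main counts and the calls of the named genes are therefore given with and without apical T3 replicate 1, and those that involve T5 also without apical T5 replicate 1. No gene fixed for this report marks the apical or the basal position, so the labelled positions were not checked against markers. As a description, libraries were compared with their replicates in genes called between positions at T1. In the 690 genes higher in apical buds, the median log2 differences of apical T5 replicates 1, 2 and 3 were -0.28, 0.09 and 0.21. In the 280 genes higher in basal buds they were -0.01, 0.03 and -0.03.

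Apical buds at T3 were near T1 and far from T5 in most genes that changed. PpTFL1, a repressor of flowering, was higher at T3 than the average of T1 and T5 by 1.44 on the log2 scale (SE 0.16), and its T3 libraries lay above all the others. The mitotic cyclins PpCYCB1.2 and PpCYCB1.4 were higher by 1.07 and 1.14, with T3 near T1. The trehalose phosphate synthase genes PpTPS9 and PpTPS10 and the gibberellin-inactivating PpGA2ox6 were lower, at -1.37, -1.33 and -1.22, with a high level at T5 alone. By the study's limits, edgeR on the 9 apical libraries called no gene highest or lowest at T3 against both times, while other tests and sets of libraries called up to 18 highest and 5 lowest. The counts of 18 and 5 were those of DESeq2 on the same 9 libraries. DESeq2 is the package with which the study applied these limits, to basal buds.

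Against the average of T1 and T5, 978 of 19636 genes tested (4.98%) passed the test at an FDR below 0.01 and at least 2-fold, 614 higher at T3 (3.13%) and 364 lower (1.85%). Without apical T3 replicate 1 the counts were 484 higher (2.45%) and 322 lower (1.63%), of which 409 and 254 were among the 614 and 364. Without apical T5 replicate 1 they were 533 and 330. Since the buds were measured in bulk, more RNA per cell and more cells of a type cannot be told apart in any of these values.

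Most of these genes were called against T5 and not against T1. T3 was still beyond T1 in the same direction in 447 of the 614 genes (72.8%) and 244 of the 364 (67.0%). It was so by at least 2-fold in 39 and 28. Choosing the genes against the average favours that direction. Of the 614 genes above the average, 603 were also called higher at T3 than at T5, but only 2 were called higher at T3 than at T1, and their median log2 fold change was 2.39 against T5 and 0.21 against T1. Of the 364 below the average, 363 were called lower than at T5 and 0 lower than at T1, with medians of -2.45 and -0.23. Over all 19636 genes the medians were 0.00 against T5 and -0.01 against T1. T1 and T5 themselves differed by the same rule in 550 of the 614 and in 327 of the 364. The 3 T3 libraries lay above all 6 T1 and T5 libraries in 151 of the 614 genes (24.6%, against 6.1% of all genes tested), and below all 6 in 122 of the 364 (33.5%, against 6.89%), shares that choosing the genes by a difference at T3 favours.

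The 2 single comparisons were very unequal. T3 differed from T5 in 4085 genes (20.8%), 2383 higher (12.1%) and 1702 lower (8.67%), and without apical T5 replicate 1 in 3852. T3 differed from T1 in 11 genes (0.056%), all higher at T3, with log2 fold changes of 1.18 to 3.0 and a lowest adjusted p of 0.000854 in edgeR. An unadjusted p under 0.05 was found in 3805 of the 19636 genes tested, so few calls do not show that T3 and T1 were alike. Of these 11 genes, 10 were higher still at T5 and 0 were called higher at T3 than at T5. This small count moved with single libraries: it was 18 (0.0913%) without apical T3 replicate 1, 20 without replicate 2 and 1 without replicate 3, it was 2, 1 and 1 without apical T5 replicates 1, 2 and 3, and it was 0 without any 1 of the T1 libraries. DESeq2 called 181 of 19636 genes between T3 and T1, 142 higher and 39 lower, and edgeR on all 18 libraries called 94 higher and 23 lower of 19754.

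**Figure D1:**
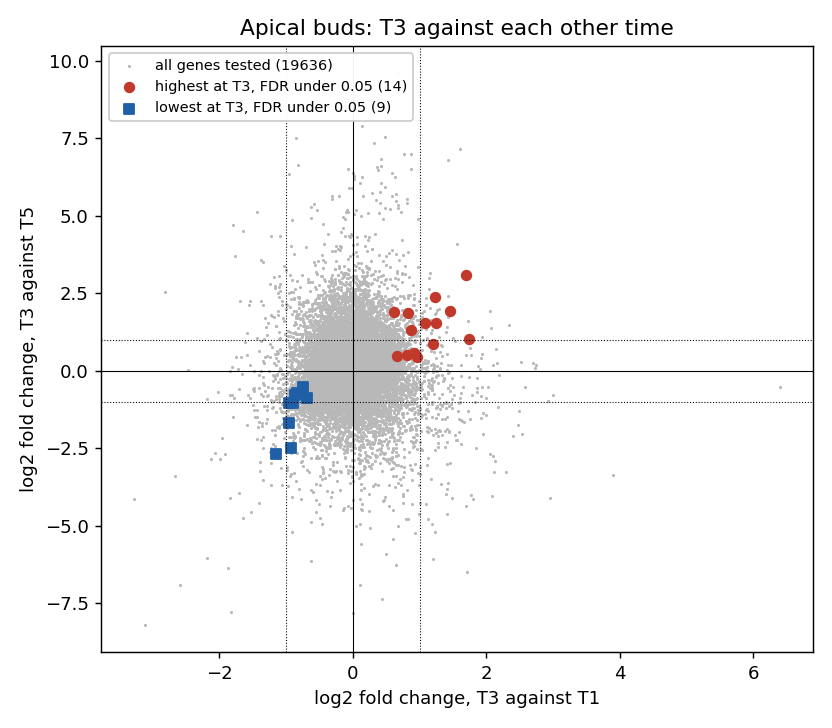
Log2 fold change of T3 against T1 (horizontal axis) and against T5 (vertical axis) in apical buds for the 19636 genes tested with edgeR (grey points), with the 14 genes highest (red) and the 9 lowest (blue squares) at T3 at an FDR below 0.05 in both comparisons. Dotted lines mark a 2-fold change. The cloud is wider along the T5 axis than along the T1 axis, and the coloured genes are at the near corners of it rather than far out.

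With edgeR on the 9 apical libraries, 0 genes were highest and 0 were lowest at T3 at an FDR below 0.01 and at least 2-fold. At an unadjusted p under 0.05 in both comparisons, 781 genes were highest (3.98%) and 547 lowest (2.79%), and at an FDR below 0.05 with no limit on the fold, 14 genes were highest (0.0713%) and 9 lowest (0.0458%). Without apical T3 replicate 1, the stricter rule gave 1 gene highest (0.00507%) and 1 lowest (0.00507%), and the looser rule gave 56 highest (0.284%) and 30 lowest (0.152%), which held all of the 14 and the 9. DESeq2 on the 9 libraries called 18 highest (0.0917%) and 5 lowest (0.0255%) by the stricter rule, and on the 8 libraries 8 (0.0406%) and 4 (0.0203%). The edgeR fit of all 18 libraries, where basal buds share in the estimate of the spread, called 10 highest (0.0506%) and 5 lowest (0.0253%), of which 10 and 4 were also called by DESeq2. The fit of 17 libraries called 6 (0.0302%) and 2 (0.0101%). By the looser rule DESeq2 called 174 highest (0.886%) and 121 lowest (0.616%) with 9 libraries, and 129 (0.654%) and 112 (0.568%) with 8. Under that rule the 18-library fit called 369 (1.87%) and 286 (1.45%), and the 17-library fit called 148 in each direction (0.745%).

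**Figure D2:**
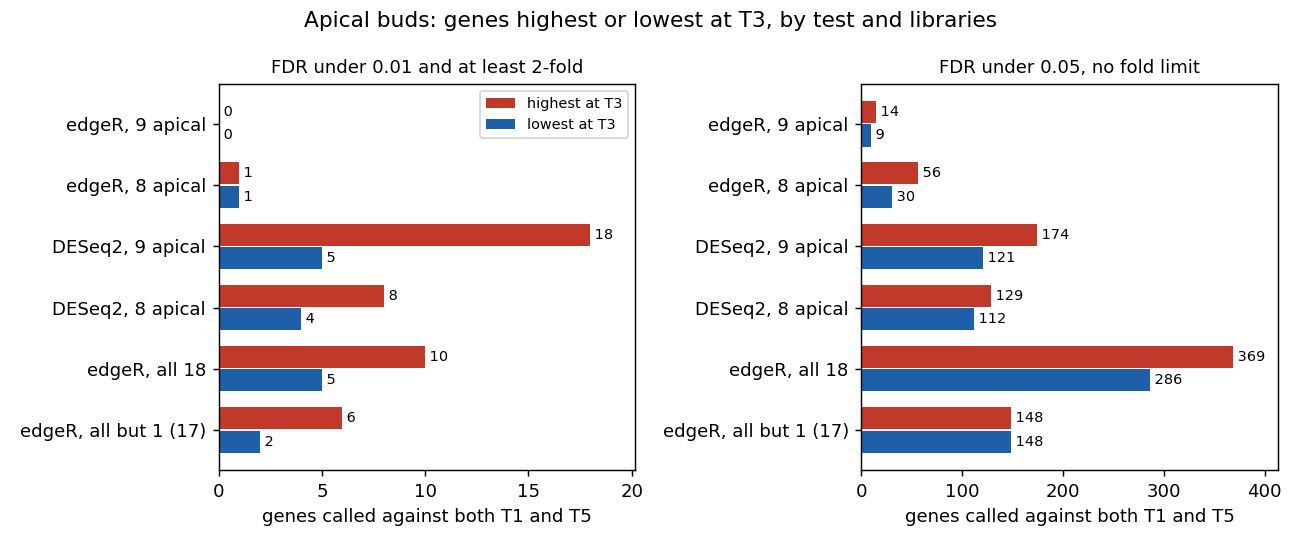
Number of genes called highest (red) or lowest (blue) at T3 in apical buds against both T1 and T5, for 6 combinations of test and libraries (rows), at an FDR below 0.01 with at least a 2-fold change (left panel) and at an FDR below 0.05 (right panel). The fits of 8 and 17 libraries leave out apical T3 replicate 1. The edgeR test on 9 apical libraries calls 0 and 0 on the left and 14 and 9 on the right.

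The study names 15 genes by identifier, most of them chosen by the authors on these same samples, so their values are a description of known candidates. Against the average of T1 and T5, 3 of the 15 were called higher (against 3.13% of all genes tested) and 4 lower (against 1.85%) at T3 in apical buds. Against T5, 6 were called higher (against 12.1%) and 4 lower (against 8.67%), and against T1, 0 in either direction, so that every call against the average came with a call against T5 and without one against T1. Without apical T3 replicate 1, 3 were called higher and 3 lower than the average, since PpCYCB1.4 and TEF2 were no longer 2-fold from it and PpSPL9.2 was. Without apical T5 replicate 1 the calls against the average were those of all 9 libraries, and PpRSI-1 was no longer called against T5, at 0.80 on the log2 scale. In both of these fits 0 were called against T1.

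Among the floral regulators, PpTFL1 (PRUPE_7G112600), of the family members that hold back flowering, was the only 1 of the 15 whose 3 apical T3 libraries lay above all T1 and T5 libraries. It had 1074, 911 and 715 normalized counts at T3, against 503, 387 and 438 at T1 and 244, 203 and 310 at T5. The T3 libraries did not overlap the others, and T5 was below T1. The log2 fold change was 1.44 (SE 0.16, adjusted p = 0.000456) against the average and 1.85 (SE 0.20, adjusted p = 6.32e-05) against T5, or 1.83 (adjusted p = 0.000553) against T5 without apical T5 replicate 1. Against T1 it was 1.04 (SE 0.20) with an adjusted p of 0.0574, above both limits used here. Without replicate 1, its highest library, it was 1.29 against the average and 0.88 against T1 (adjusted p = 0.0430), which placed PpTFL1 among the 56 genes of the looser rule. DESeq2 and the 18-library edgeR fit gave adjusted p of 0.000284 and 0.00458 against T1.

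The relative PpCEN (PRUPE_6G128400) had 273, 147 and 171 normalized counts at T3, against 227, 181 and 144 at T1 and 91.7, 144 and 176 at T5. These ranges overlapped, replicate 1 was again the highest, and the log2 difference from the average was 0.34 (SE 0.26, adjusted p = 0.323) with replicate 1 and 0.03 without it, and what part that library has in such values was not tested. PpFT (PRUPE_6G364900), the flowering promoter of the family, lay between the others, with 186 to 188 normalized counts at T3, against 99.6 to 126 at T1 and 203 to 306 at T5, with no overlap between the times. Its log2 differences of 0.73 from T1 (adjusted p = 0.0969) and -0.46 from T5 (adjusted p = 0.0464) did not pass the stricter rule. The difference from T5 was -0.47 without apical T3 replicate 1 (adjusted p = 0.0564), past neither limit, and -0.61 without apical T5 replicate 1 (adjusted p = 0.00989), still under 2-fold. PpAP1 (PRUPE_1G290600), the marker of floral identity, had few counts at all times, with 16.3 to 20.7 normalized counts at T3, against 9.24 to 17.4 at T1 and 28.2 to 34.4 at T5, and its difference from the average was -0.01 (SE 0.28). In apical buds the order of PpFT and PpAP1 levels was T1, T3, T5, with T3 in the middle.

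Both SPL9 genes, which favour flowering, were higher at T3 than at T5 and were not called against T1. PpSPL9.1 (PRUPE_6G256300) had 3016 to 3461 normalized counts at T3, against 3713 to 3878 at T1 and 952 to 1107 at T5. PpSPL9.2 (PRUPE_7G074200) had 1110, 1666 and 1716 at T3, against 1584 to 1727 at T1 and 395 to 440 at T5, and its low T3 value was that of replicate 1. Their log2 differences from the average were 0.74 (SE 0.09, adjusted p = 0.000675) and 0.86 (SE 0.13, adjusted p = 0.00174), under the 2-fold limit. Without replicate 1 that of PpSPL9.2 was 1.04, past it.

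The B1-type cyclins, which drive entry into mitosis, were likewise higher at T3 than at T5. PpCYCB1.2 (PRUPE_6G021200) had 463 to 581 normalized counts at T3, against 615 to 718 at T1 and 88.5 to 106 at T5, and PpCYCB1.4 (PRUPE_4G269600) had 384 to 527, against 387 to 440 and 73.5 to 114. PpCYCB1.2 was below every T1 library in every T3 library, while PpCYCB1.4 was above all T1 libraries in T3 replicate 1 and just below them in the other 2. Their log2 differences from the average were 1.07 (SE 0.11, adjusted p = 0.000346) and 1.14 (SE 0.16, adjusted p = 0.00116), and those from T1 were -0.30 (adjusted p = 0.248) and 0.06 (adjusted p = 0.850). Without apical T3 replicate 1 the differences from the average were 1.06 and 0.96, the second under 2-fold.

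The genes of trehalose and gibberellin metabolism that were below the average at T3 had T3 levels much nearer to T1 than to T5, where they were far higher. PpTPS9 and PpTPS10 (PRUPE_5G176400 and PRUPE_1G256200), of the family that makes or senses trehalose 6-phosphate, had 861 to 1129 and 1872 to 3864 normalized counts at T3, against 832 to 1035 and 3058 to 3684 at T1 and 5967 to 8395 and 15247 to 21105 at T5. Their log2 differences from the average were -1.37 (SE 0.14, adjusted p = 0.000349) and -1.33 (SE 0.22, adjusted p = 0.00249), and the lowest PpTPS10 value at T3 was that of replicate 1. Without that library they were -1.27 and -1.07. PpGA2ox6 (PRUPE_4G150200), of the enzymes that inactivate gibberellins, had 7367 to 8178 at T3, against 5200 to 5828 at T1 and 50446 to 72708 at T5. Its log2 difference from the average was -1.22 (SE 0.13, adjusted p = 0.000338), and -1.26 without apical T3 replicate 1. Its T3 libraries lay above all T1 libraries, with a log2 difference from T1 of 0.54 (SE 0.14, adjusted p = 0.123). PpRSI-1 (PRUPE_3G161500), of the gibberellin-regulated GASA family, had 5531 to 6490 at T3, against 5594 to 7079 at T1 and 2080 to 3980 at T5, and differed from the average by 0.44 (SE 0.18, adjusted p = 0.0890).

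The reference genes of the study's qPCR were not alike in apical buds. TEF2 (PRUPE_4G138900), a translation elongation factor, had 586 to 881 normalized counts at T3, against 804 to 854 at T1 and 2936 to 4012 at T5, with a log2 difference from the average of -1.15 (SE 0.15, adjusted p = 0.000955), and of -0.99, just under 2-fold, without apical T3 replicate 1. UBQ10 (PRUPE_4G204900), a polyubiquitin, was also highest at T5, with 22582 to 27836 normalized counts at T3, against 19832 to 22019 at T1 and 32775 to 43378 at T5. It differed from the average by -0.13 (SE 0.12, adjusted p = 0.406) and from T5 by -0.59 (SE 0.14, adjusted p = 0.00532), under 2-fold, and T5 was above T1 by 0.92 (adjusted p = 0.000392). In basal buds TEF2 and UBQ10 differed from the average by -1.13 and -0.20, and from T5 by -1.97 and -0.66. The edgeR test of the difference between positions gave -0.04 and 0.05 (adjusted p = 0.909 and 0.824). The thioredoxin gene PRUPE_1G410500, of the proteins that reduce disulfides in others, had 1058, 1439 and 1282 normalized counts at T3, against 1191, 1222 and 1249 at T1 and 1265, 1101 and 1305 at T5, with a difference of 0.06 (SE 0.11, adjusted p = 0.724).

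The 14 genes highest at T3 by the looser rule had log2 fold changes of 0.62 to 1.74 against T1 and 0.45 to 3.09 against T5, with medians of 1.02 and 1.43. Their mean level at T3 ran from 53.6 to 13759 normalized counts. The 9 lowest genes had log2 fold changes of -1.15 to -0.68 against T1 and -2.69 to -0.53 against T5, with medians of -0.89 and -1.03, and T3 levels of 124 to 1013 normalized counts. The 3 T3 libraries were separate from the 6 others in all 14 and all 9 genes, which choosing them by both tests favours. T5 was below T1 in 8 of the 14 and in 3 of the 9. A change of at least 2-fold in both comparisons was reached by 6 of the 14 and 1 of the 9.

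By the number of libraries that do not overlap, with no test, T3 lay above all T1 and T5 libraries in 1198 genes (6.1%) and below all of them in 1353 (6.89%). Replicate 1 alone lay above all 6 of those libraries in 5231 genes (26.6%) and below in 5965 (30.4%), against 14.6% and 16.4% for replicate 2 and 14.4% and 15.5% for replicate 3. Replicate 1 was thus beyond those libraries in more genes than either other T3 replicate, in both directions.

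Replicate 1 itself played no part in the calls made without it. In the 56 genes called highest at T3 from replicates 2 and 3, replicate 1 lay above all 6 T1 and T5 libraries in 47 (83.9%), and its median log2 difference from the mean of those libraries was 0.80, against 0.74 in replicate 2 and 0.79 in replicate 3. In the 30 lowest genes it lay below all 6 in 26 (86.7%), with medians of -0.88, -0.67 and -0.77. These shares are not independent of the calls, which used the same T1 and T5 libraries: among all genes where replicates 2 and 3 lay above those 6 libraries, called or not, replicate 1 did so too in 74.7% of 1604, and it lay below with them in 77.5% of 1746. Its values in the 56 genes ran from -0.87 to 2.81, below 0 in a few of them, where replicate 2 ran from 0.28 to 3.63. In the 18 genes that DESeq2 called highest with this library included, it was the highest of the 3 T3 libraries in 13, and in the 5 lowest it was the lowest in 5. It was less dominant in the edgeR lists of the looser rule. There it was the most extreme in 6 of the 14 and 6 of the 9 genes called with it. In those called without it, it was so in 21 of the 56 and 17 of the 30. Replicate 3 was the most extreme in 6, 1, 22 and 5 genes of these lists. No share over all genes is given for these counts.

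**Figure D3:**
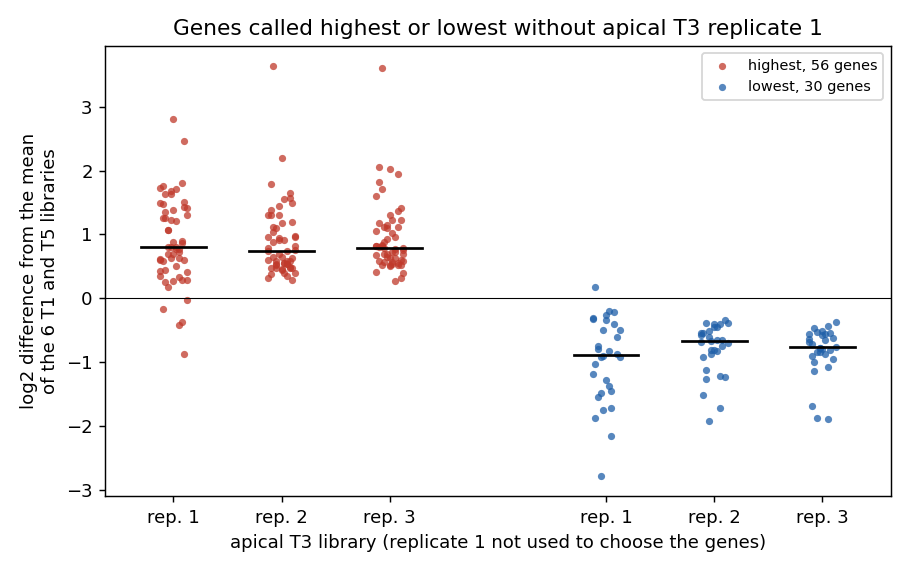
Log2 difference of each apical T3 library from the mean of the 6 apical T1 and T5 libraries, for the 56 genes called highest (red) and the 30 called lowest (blue) at T3 at an FDR below 0.05 without apical T3 replicate 1. Each point is a gene and each black bar the median. Replicate 1 has medians of 0.80 and -0.88, near those of the other replicates, and a few genes on the other side of 0.

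The files do not pair the gene identifiers with names, and 4 identifiers not named by the study are described here, 2 that were higher at T3 and 2 that were lower. What their products do is not given here. PRUPE_2G043600 was the gene called lowest at T3 without replicate 1, and the only 1 of the 9 lowest genes that the stricter rule also called lowest at T3 in basal buds. It had 769, 596 and 725 normalized counts at T3, against 1370, 1378 and 1376 at T1 and 1353, 1507 and 1446 at T5. All 3 T3 libraries were thus near a single level that no T1 or T5 library reached. The log2 fold change was -0.96 (SE 0.12, adjusted p = 0.0158) against T1 and -1.03 (SE 0.12, adjusted p = 8.31e-05) against T5 with 9 libraries, and -1.04 (adjusted p = 0.00201) and -1.11 without replicate 1. Without apical T5 replicate 1 it was -1.07 against T5. DESeq2 gave an adjusted p of 1.40e-10 against T1 but a change of -0.95, short of 2-fold.

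PRUPE_3G102800, of the genes that both DESeq2 and the 18-library fit called highest at T3, was the one with the largest value of the smaller of its 2 fold changes, and was chosen after its values were seen. It had 2037, 1327 and 1185 normalized counts at T3, against 496, 496 and 430 at T1 and 129, 236 and 175 at T5. Replicate 1 was the highest of the T3 libraries, and the other 2 were also above every T1 and T5 library. The log2 fold change against T1 was 1.70 (SE 0.25, adjusted p = 0.0229), and 1.42 without replicate 1 (adjusted p = 0.01002, just above the limit), with adjusted p of 9.26e-08 in DESeq2 and 0.000552 in the 18-library fit. Against T5 it was 3.09 (SE 0.26, adjusted p = 1.54e-05), 2.81 without apical T3 replicate 1 and 2.89 without apical T5 replicate 1.

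PRUPE_8G236100 was chosen in the same way among the lowest genes. It had 326, 444 and 392.3 normalized counts at T3, against 914, 816 and 862 at T1 and 2264, 2995 and 2263 at T5. The T3 libraries were below all others, and T5 was well above T1. The log2 fold change was -1.15 (SE 0.15, adjusted p = 0.0197) against T1 and -2.69 (SE 0.16, adjusted p = 2.62e-06) against T5. Against T1 it was -1.04 without replicate 1 (adjusted p = 0.01002, also just above the limit), and against T5 it was -2.58 without that library and -2.75 without apical T5 replicate 1.

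PRUPE_2G018600 was the only gene called highest at T3 without replicate 1 by the stricter rule. It had 6.88, 94.7 and 92.8 normalized counts in T3 replicates 1, 2 and 3, against 4.11, 4.09 and 4.83 at T1 and 6.32, 6.69 and 0 at T5. Replicate 1 was at the level of T1 and T5, so the gene was highest in only 2 of the 3 T3 libraries, and the fit of 9 libraries did not test it because of its low counts. Without replicate 1 it passed that filter through its 2 high T3 libraries alone, with 58 and 106 raw counts against at most 8 in any T1 or T5 library, so the filter favoured this call. The fold change of 4.39 on the log2 scale against T1 (adjusted p = 0.00386, 8 libraries) therefore holds only for those 2 libraries. A similar single high value, 107 normalized counts, was found in basal T1 replicate 1, while the other 8 basal libraries had at most 9.56.

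**Figure D4:**
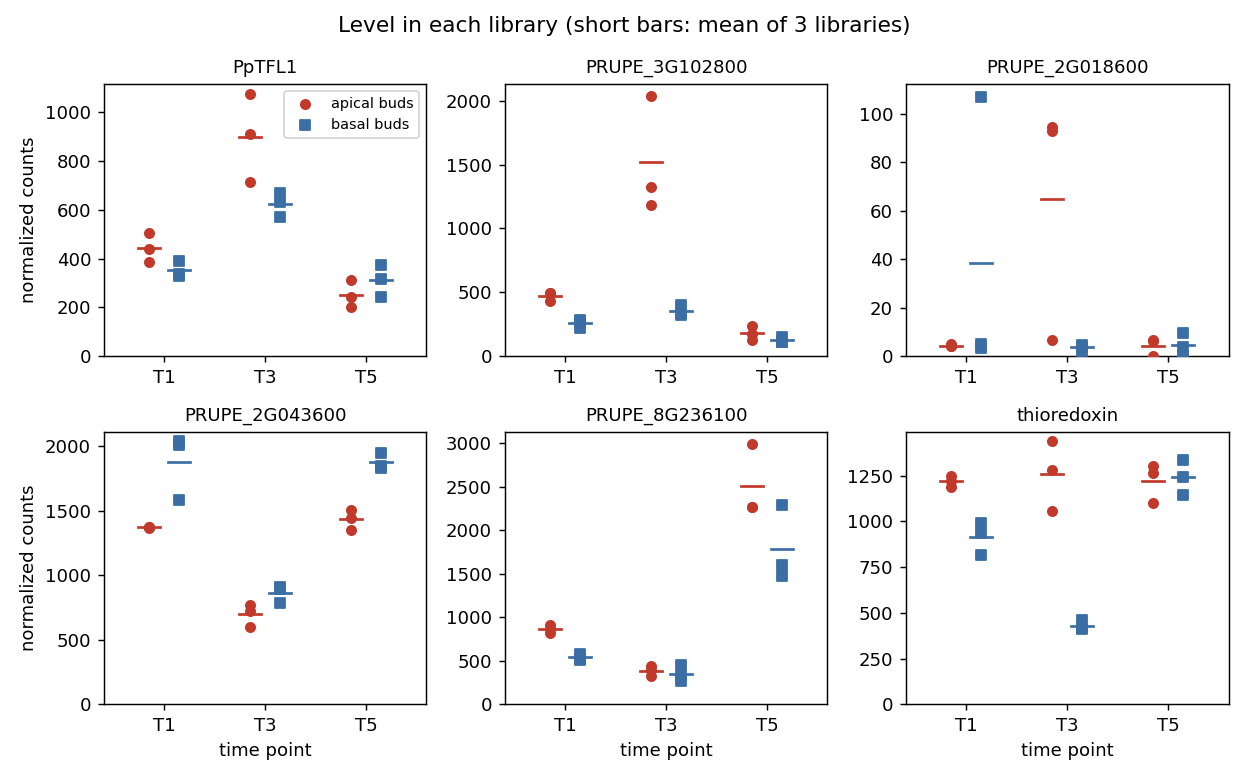
Normalized counts (vertical axes, from 0) of 6 genes in each library at T1, T3 and T5, with apical buds as red circles and basal buds as blue squares, and the mean of 3 libraries as short bars. PpTFL1 and PRUPE_3G102800 peak at T3 in apical buds, PRUPE_2G043600 and PRUPE_8G236100 are lowest there, and PRUPE_2G018600 is high in only 2 of the apical T3 libraries. The thioredoxin gene is level in apical buds and low at T3 in basal buds.

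Basal buds were compared by the same rules. In them 381 genes were above the average of T1 and T5 at T3 (1.97%) and 467 below (2.42%) of 19304 tested, and 18 genes were highest (0.0932%) and 34 lowest (0.176%) against both times by the stricter rule. By the looser rule 745 were highest (3.86%) and 568 lowest (2.94%). These counts were not compared between positions by a test, and apical T3 holds the library that stood apart.

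Of the 14 genes highest at T3 in apical buds by the looser rule, 12 were also above the average at T3 in basal buds, 4 were called highest there by the same rule, against 3.86% of all genes, and 5 had no overlap, against 8.1%. Their median log2 difference from the average was 1.29 in apical and 0.56 in basal buds, against 0.01 over all genes in each. Of the 9 lowest genes, 7 were below the average in basal buds, 4 were called lowest there, against 2.94%, and 4 had no overlap, against 6.52%, with medians of -0.96 in apical and -0.57 in basal buds. In the larger lists without replicate 1, 51 of the 55 highest genes tested in basal buds and 25 of the 30 lowest kept the direction there, and 23 and 11 were called by the looser rule. A direction against the average can come from T5 alone, and no share over all genes is given for it. Of the 14, 9, 56 and 30 genes, 2, 0, 3 and 0 were called in the test of the difference between positions, against 0.699% of all genes, in lists chosen on apical values that this test also uses.

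In the other direction, the 18 genes highest at T3 in basal buds were above the average in apical buds in 15 cases, with no overlap in 7 (38.9%, against 6.1% of all genes). The 34 lowest genes were below the average in apical buds in 26 cases, with no overlap in 7 (20.6%, against 6.89%). The other 8 went the opposite way in apical buds, 4 of them by at least 2-fold and the farthest by 3.20 on the log2 scale. In apical buds T3 was beyond T1 in the direction of the list in 15 of the 18 and only 12 of the 34. It was beyond T5 in 12 of the 18 and 29 of the 34. The looser rule called 0 of the 18 and 1 of the 34 in apical buds, against 0.0713% and 0.0458% of all genes. The signs against the average thus do not by themselves show a shared pattern at T3. The difference between positions passed the test for 3 of the 18 and 5 of the 34, against 0.699% of all genes. In each of them T3 was farther in the direction of the list in basal than in apical buds. Basal values chose these lists and enter the test.

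**Figure D5:**
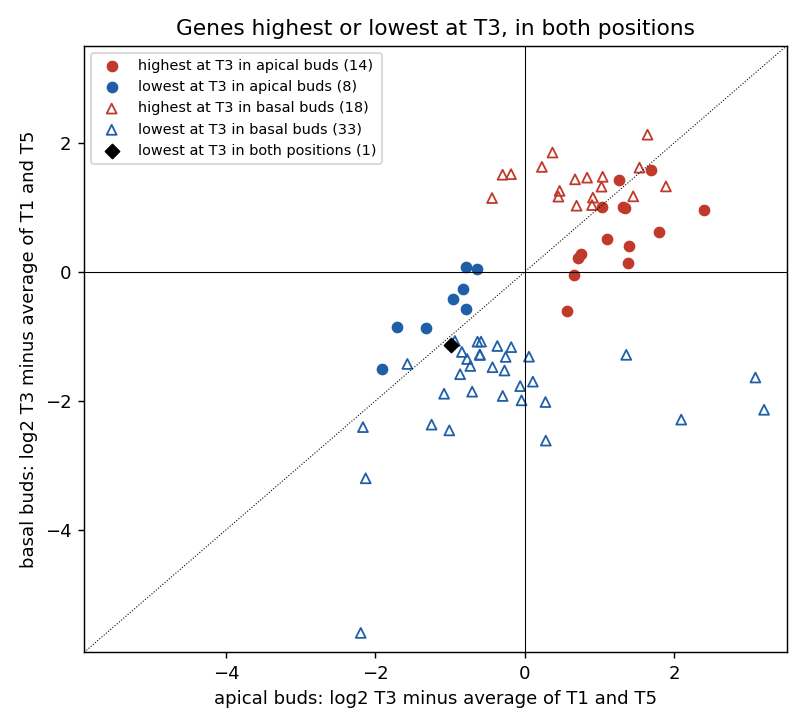
Log2 difference of T3 from the average of T1 and T5 in apical buds (horizontal axis) and in basal buds (vertical axis), for the genes highest or lowest at T3 in apical buds at an FDR below 0.05 (filled) and in basal buds at an FDR below 0.01 and at least 2-fold (open triangles), with PRUPE_2G043600, lowest in both, as a black diamond. The dotted line marks equal differences. Of the basal lists, 15 of 18 and 26 of 34 genes have the same sign in apical buds, and 4 of the 34 lie at 1 or more on the apical axis.

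By overlap alone, 332 genes had T3 above all other libraries in both positions, 28.04% of the 1184 such genes in apical and 21.3% of the 1557 in basal buds among the 19211 genes tested in both. T3 was below in both positions in 214 genes, 15.9% of 1346 in apical and 17.01% of 1258 in basal buds. Opposite patterns were rarer: 23 genes were above in apical and below in basal buds, 1.94% of the 1184 and 1.83% of the 1258. Another 15 were below in apical and above in basal buds, 1.11% of the 1346 and 0.963% of the 1557. Over all genes tested in each position, T3 was above all other libraries in 6.1% in apical and 8.1% in basal buds. It was below them in 6.89% and 6.52%.

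PRUPE_2G043600 was lowest at T3 in both positions. Its basal libraries had 909, 895 and 782 normalized counts at T3, against 1584, 2041 and 2013 at T1 and 1834, 1846 and 1952 at T5. The difference between positions was 0.12 on the log2 scale (SE 0.13, adjusted p = 0.564). The T3 libraries of PpTFL1 also lay above all others in basal buds, with 632, 671 and 570 normalized counts, against 337, 391 and 327 at T1 and 376, 317 and 243 at T5. Its basal log2 fold changes were 0.82 against T1 (edgeR adjusted p = 0.0026) and 0.98 against T5 (adjusted p = 7.13e-05). The looser rule called these and the stricter rule did not, as both were under 2-fold. For PpTFL1 the difference from the average was 1.44 in apical and 0.90 in basal buds, and the positions differed by 0.52 (SE 0.22, adjusted p = 0.133), or by 0.37 without apical T3 replicate 1. By the looser rule PRUPE_8G236100 was lowest at T3 in both positions too. It had 325, 447 and 265 normalized counts at T3 in basal buds, against 505, 578 and 532 at T1 and 1470, 1597 and 2288 at T5, with a difference between positions of -0.43 (SE 0.23, adjusted p = 0.23).

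PRUPE_3G102800 changed more in apical buds. Its basal libraries had 327, 325 and 399 normalized counts at T3, against 264, 283 and 222 at T1 and 150, 112 and 108 at T5, with no overlap between the times and T3 the highest. Against T1 the basal change was 0.45 on the log2 scale (adjusted p = 0.0504), which neither rule called, and against T5 it was 1.48. The difference between positions was 1.41 (SE 0.26, adjusted p = 0.00748), and 1.14 without apical T3 replicate 1 (adjusted p = 0.00729). With apical and basal buds of a replicate paired by their shoots, the adjusted p was 0.0349, and it exceeded 0.01 in 11 of the 18 fits that left out 1 library. The gene was chosen for its apical fold changes at T3, which this test uses again, so a larger change in apical buds was favoured.

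The thioredoxin gene, level in apical buds, fell at T3 in basal buds, where it had 461, 409 and 419 normalized counts at T3, against 819, 993 and 935 at T1 and 1245, 1338 and 1147 at T5. The difference between positions was 1.35 (SE 0.14, adjusted p = 0.000243), was 1.47 without apical T3 replicate 1, passed the limit in all 18 fits that left out 1 library, and passed it with the shoots paired (adjusted p = 0.00782). The study names this gene as one lower at T3 in the same basal libraries, so all these fits use values that chose it. The other 14 named genes did not pass this test, with differences from -0.59 to 1.06 and adjusted p from 0.0220 to 0.938. The 2 lowest of these adjusted p belonged to the cyclins, PpCYCB1.2 with a difference of 0.94 (SE 0.23, adjusted p = 0.0220) and PpCYCB1.4 with 1.06 (SE 0.28, adjusted p = 0.0320), with adjusted p of 0.00116 and 0.00460 in DESeq2, where the PpCYCB1.2 difference of 0.96 was under 2-fold. With the shoots paired the adjusted p were 0.0601 and 0.0781, past neither limit.

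Over all genes, the 2 positions differed in T3 against the average in 138 of 19754 genes (0.699%), 119 with a higher value in apical buds (0.602%) and 19 with a lower one (0.0962%). In the 119 genes the median difference from the average was 1.28 in apical and -0.76 in basal buds, and in the 19 it was -0.66 and 0.83. In apical buds the 3 T3 libraries lay above all others in 23 of the 119 (against 6.1% of all genes) and below in 8 of the 19 (against 6.89%). In basal buds they lay below all others in 33 of the 119 (against 6.52%) and above in 8 of the 19 (against 8.1%), and both are values that the test used. Without apical T3 replicate 1 the counts were 117 (0.589%) and 17 (0.0855%), of which 99 and 8 were shared. At an FDR below 0.05 with no fold limit, 1455 genes differed (7.37%). Pairing the buds by shoot left 34 genes, 32 higher and 2 lower. The count was 37, 48 and 60 without basal T3 replicates 1, 2 and 3, 72 and 73 without apical T1 replicates 1 and 3, 84 without basal T1 replicate 2, 91 without basal T5 replicate 1 and 274 without apical T3 replicate 2.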

How the data were processed

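Total RNA of buds was sequenced by the authors from stranded mRNA libraries on an Illumina NextSeq, mapped by Hisat2 onto the peach genome, and counted by HTSeq on public gene models. The strand setting is not given in the sources used here. The authors deposited the raw counts of each replicate for 26873 genes, without normalization. Of the gene identifiers, 0 matched the RefSeq gene table at hand, so lists chosen by product name (leaf and vascular markers among them) could not be used and no sequence is shown.

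The main test was edgeR's quasi-likelihood F test (edgeR 4.0.16, R 4.3.3; TMM scaling, the package's filter on low counts, 3 times as separate groups) on the 9 apical libraries, with Benjamini-Hochberg adjustment over all genes tested. A gene was called at an FDR below 0.01 and at least 2-fold, limits that the study applied with DESeq2 rather than edgeR. SEs of log2 fold changes were derived from F, as size over root F. The difference between positions was fitted on 18 libraries. Alternatives were DESeq2 1.42.0, other scaling, no filter, a robust fit, a test against a 2-fold change, an FDR of 0.05 with no fold limit, more libraries, replicate blocks and each library left out. The tests were also run on simulated counts. Those had no difference between T1 and T5 and no library that stood apart, so no result here rests on them. The precision is set by 3 replicates per group, pooled in the field, at the depths given.

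Named genes are those the study names by identifier, and the top 2 in each direction by the smaller of the 2 fold changes among genes called at T3 without overlap and with a mean of at least 100 normalized counts in the higher group. Only PRUPE_2G043600 met that rule, and the other 3 identifiers were chosen after their values were seen. The members and lists were chosen with earlier results of these data known. Equal replicate numbers pair apical and basal buds by shoot at each time, if names follow the shoots: deviations of 9 such pairs correlated from -0.07 to 0.20. They give no pairing across times. Figures were drawn with matplotlib.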

Additional observations from a re-analysis of the deposited data

Results flagged for a closer look

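The change of T3 against the average of T1 and T5 differed between apical and basal buds in 138 genes by the edgeR test of the difference on 18 libraries, and in 34 when buds that share shoots were paired. Among the genes named here, the thioredoxin gene PRUPE_1G410500 was flagged by the same test, with a difference of 1.35 on the log2 scale, level in apical and low at T3 in basal buds, and it was also called with the shoots paired (adjusted p = 0.00782). PRUPE_3G102800 was flagged with a difference of 1.41, higher than the average at T3 in both positions and more so in apical buds, but it was not called with the shoots paired (adjusted p = 0.0349). Groups of 3 libraries are too small for a formal check of single outlying samples. Apical T3 replicate 1 was set apart above by its correlations and its low genes, with no test. The study names the thioredoxin gene as one lower at T3 in these basal libraries, and PRUPE_3G102800 was chosen on its apical values. The test of the difference uses those values again, which favours both calls. What lies behind the differences between positions was not tested.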

How the results depend on the processing

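The counts of genes highest and lowest at T3 in apical buds were 0 and 0 with edgeR on 9 libraries, 18 and 5 with DESeq2, 10 and 5 with edgeR on 18 libraries, and 14 and 9 at an FDR below 0.05. They were 0 to 1 and 0 to 1 with 1 library left out. Without apical T3 replicate 1 they were 1 and 1, and then 8 and 4 with DESeq2, 6 and 2 with 17 libraries and 56 and 30 at an FDR below 0.05. T3 against T1 gave 11 genes, 181 with DESeq2, 117 with 18 libraries, 112 at an FDR below 0.05, 0 against a 2-fold change and 0 to 20 with 1 library left out. T3 against the average gave 978, then 41 against a 2-fold change, 5555 at an FDR below 0.05 and 663 to 939 with 1 library left out. T3 against T5 gave 4085, then 1539 and 9982, and 3525 to 4101.

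Median-of-ratios scaling, no filter and the robust fit moved none of the apical counts by over 1.5 times. With the replicate number as a block, which pairs nothing across times by the labels (9 pairs, correlations from -0.43 to 0.07), T3 against the average gave 638 and T3 against T1 gave 0. The block with shoots paired gave 34 genes for the difference between positions, against 138 without it, 381 with DESeq2, 1455 at an FDR below 0.05 and 37 to 274 with 1 library left out. In basal buds the counts were 18 and 34, then 7 and 22 with 18 libraries and 53 lowest with DESeq2, with 848 against the average, and 737 to 871, 10 to 17 and 19 to 40 with 1 library left out.

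PpAP1 turned sign against the average under the replicate block (0.015) and with 1 library left out (-0.10 to 0.13), as did the thioredoxin gene (-0.045 to 0.16). With 1 library left out, the difference between positions turned sign for PpCEN (-0.27 to 0.20), PpAP1 (-0.088 to 0.77), PpSPL9.2 (-0.059 to 0.23), TEF2 (-0.14 to 0.13) and UBQ10 (-0.0013 to 0.14), none of which passed the test. The cause of these changes was not tested.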
